A study of Mus musculus with 8 samples.

Results

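The AP-1 family comprises the 4 Fos genes (Fos, Fosb, Fosl1 and Fosl2) and the 3 Jun genes (Jun, Junb and Jund) of the mouse. All 7 were found by Ensembl identifier and symbol among the 39017 genes of the count table, and all 7 were abundant enough to be tested. The cells were mouse embryonic fibroblasts from E13.5 embryos, a primary mesenchymal culture, either control or with Mettl3 knocked out. Mettl3 is the catalytic subunit of the enzyme that writes N6-methyladenosine on mRNA. For the knockout, a Cre recombinase was switched on by 48 h in 500 nM 4-hydroxytamoxifen, and the cells were examined for METTL3 protein 7 days later. The labels do not name the Cre driver or the deleted exons, and drug exposure of the control cells is not stated there. Total RNA was taken from unstressed cells of each genotype, and stress granule-enriched RNA, pelleted by centrifugation, from cells of each genotype given 500 µM sodium arsenite for 30 min. A granule to total comparison therefore changes the RNA fraction and the stress together, and the share of each in a difference cannot be told apart. Each of these 4 groups had 2 biological replicates, 8 libraries in all, whose separate cultures or embryos the labels do not describe. The p-values measure the spread between replicates, estimated jointly over all 4 groups. A comparison within control cells is thus judged partly by the spread of the knockout libraries.

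AP-1 is a dimer of basic leucine zipper proteins that binds the sequence TGANTCA in promoters and enhancers. Jun proteins pair with each other or with Fos proteins, whereas Fos proteins need a partner such as Jun. Fos, Fosb, Jun and Junb are classical immediate-early genes, switched on within minutes by growth factors or stress through mitogen-activated protein kinases, and their mRNAs are short-lived. Fosl1 and Fosl2 respond more slowly, and Jund is expressed at a steadier level in resting fibroblasts. Arsenite is an oxidative stress that halts translation initiation and gathers untranslated mRNA in cytoplasmic stress granules.

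Library totals ranged from 67257220 to 123508539 counts, and levels are given as CPM, the counts of a gene per 1000000 counts of its library after scaling with trimmed means. All 12 fibroblast markers exceeded 1 CPM in every library (summed level 6310 to 9915 CPM), while the summed levels of the 4 endothelial markers were 6.24 to 20.1 CPM, of the 4 macrophage markers 24.6 to 54.5 CPM, of the 4 skeletal muscle markers 1.87 to 6.72 CPM and of the 4 neural markers 17.1 to 48.8 CPM. The 6 epithelial markers summed to 153 to 885 CPM, most of it Krt18 and Krt14, with Epcam at no more than 1.61 CPM. Passing 1 CPM did not set the fibroblast markers apart. All 4 macrophage markers also exceeded it in both libraries of control total, knockout total and knockout granule RNA. All 6 epithelial markers did so in knockout granule RNA. The fibroblast marker Pdgfra stood at 1.39 to 3.47 CPM, below the macrophage marker Ptprc at 16.7 to 41.8 CPM. In bulk RNA, fewer cells of a type and less RNA per cell cannot be told apart. Mettl3 measured 25.4 and 24.9 CPM in total RNA and 15.7 and 15.4 CPM in granule RNA of control cells. In knockout cells it measured 6.01 and 7.35 CPM in total and 5.56 and 6.38 CPM in granule RNA (log2 differences -1.91, adjusted p = 0.0345, and -1.38, adjusted p = 0.0208), without overlap between genotypes; 18.38% of its exonic bases are shared with Tox4. The call in total RNA was kept in 10 of 20 refits (adjusted p up to 0.429), and without any 1 of the 6 libraries other than knockout total no gene was called in that comparison. The knockout total replicates differed far more from each other than those of the other groups, with a median absolute log2 ratio of 0.813 over 10261 genes against 0.101 to 0.312. Mitochondrial RNA made up 6.16% to 8.81% of both knockout granule libraries and of knockout total replicate 1, against 0.590% to 0.881% in the other 5. Their part in the results was not tested.

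In control cells, 4 of the 7 members were higher in the granule fraction (Fos, Fosb, Fosl1 and Jun) and none was lower, by edgeR's quasi-likelihood test at an adjusted p under 0.05, the threshold for a called gene. Among all 18952 genes tested, 5.89% were called higher and 4.17% lower. The median log2 difference of the 7 members was 1.62, and that of all genes -0.06. In knockout cells, 4 members were again higher (Fos, Fosb, Jun and Junb) and none was lower, where 9.17% of all genes were called higher and 8.47% lower. Their median was 1.32 against 0.04 for all genes. Between knockout and control total RNA no member was called, and 0.412% of all genes were; 2 members had an unadjusted p under 0.05, and DESeq2 called 2. Between the genotypes' granule fractions 1 member, Fosl2, was lower, with 3.66% of all genes called lower and 5.79% higher. The genotype difference in the granule to total ratio, the interaction of both factors, was called for no member and for 0.517% of all genes; 2 members had an unadjusted p under 0.05, and DESeq2 called 1. The comparisons within a genotype share libraries with those between genotypes.

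The number of members called in control cells rested on single libraries: it was 1 without control total replicate 1, 0 without control total replicate 2 or either control granule library, and 2 (Fos and Fosb) without either knockout granule library, while the share of all genes called ranged from 0% to 40.6%. In knockout cells it was 2 without either granule library of either genotype, 3 without either control total library, 5 and 7 without knockout total replicates 1 and 2, and 0 when only the knockout libraries were fitted, while 1.22% to 48.2% of all genes were called with 1 library left out. Between genotypes, leaving out knockout total replicate 1 or 2 gave 2 and 4 members in total RNA, 5 and 5 in granule RNA and 2 and 4 in the interaction, and leaving out any other library gave 0. In both genotypes the granule to total differences of Fos, Fosb, Jun and Junb were above 0 in all 20 refits. With only the control libraries fitted, Fos, Fosb, Fosl1, Jun and Junb were called higher in the control granule fraction (adjusted p = 1.91e-05 to 0.000862). Fosl2 and Jund were not, and 42.4% of all genes were called in that fit.

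**Figure D1:**
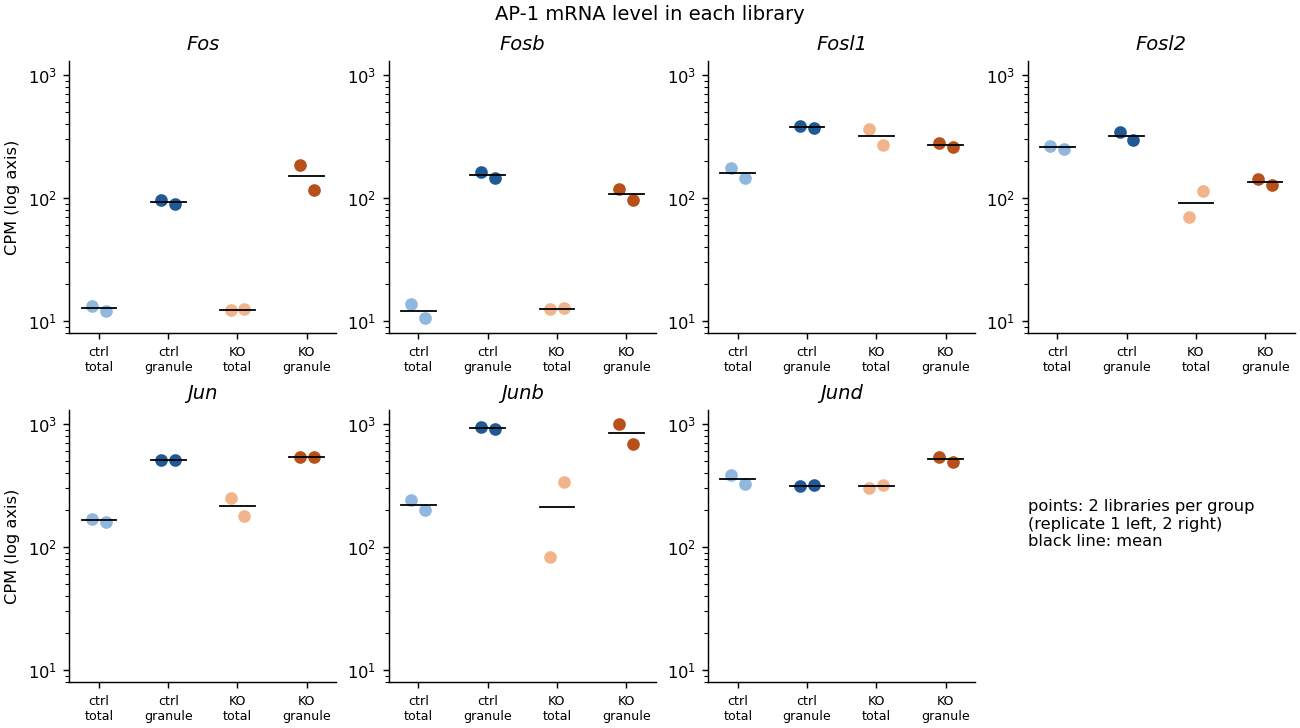
Level of each AP-1 member in CPM (log axis) in the 8 libraries; points are libraries, with replicate 1 on the left, and black lines are means of 2. Fos and Fosb stood between 10.5 and 13.6 CPM in all 4 total RNA libraries and at 89.9 CPM or more in all 4 granule libraries, while the replicates of knockout total RNA lay apart for Junb (82.5 and 338 CPM).

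Fos (ENSMUSG00000021250, chromosome 12, 85473890 to 85477273, plus strand) encodes the founding Fos protein, which cannot form a dimer with itself. It stood at 13.3 and 12.1 CPM in the control total libraries and at 12.4 and 12.4 CPM in the knockout total libraries. In the granule libraries it stood at 97.2 and 89.9 CPM in control and 184 and 117 CPM in knockout cells. Every granule library was thus far above every total library, and both knockout granule libraries were above both control ones. The granule fraction was 7.36-fold higher in control cells (log2 difference 2.88, SE 0.30, adjusted p = 0.00485) and 12.2-fold higher in knockout cells (3.61, SE 0.31, adjusted p = 0.00213). The genotypes differed by 0.69 in the granule fraction (SE 0.28, adjusted p = 0.159) and by -0.04 in total RNA (SE 0.28), and neither difference nor the interaction (0.73, SE 0.40, adjusted p = 0.278) was called. Leaving out either knockout total library, fitting the granule groups alone or weighting libraries by quality brought the granule difference past the threshold (lowest adjusted p = 0.00346).

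Fosb (ENSMUSG00000003545, chromosome 7, 19302696 to 19310051, minus strand) encodes a close relative of Fos. Its total RNA values were 13.6 and 10.5 CPM in control and 12.4 and 12.8 CPM in knockout cells. The granule libraries gave 163 and 146 CPM in control and 119 and 96.9 CPM in knockout cells. As for Fos, the granule and total libraries were widely separated, but here both knockout granule libraries were below both control ones. The granule fraction was 12.8-fold higher in control cells (3.68, SE 0.29, adjusted p = 0.00302), the largest difference of any member in that comparison, and 8.54-fold higher in knockout cells (3.09, SE 0.28, adjusted p = 0.00213). The genotype differences of 0.06 in total RNA and -0.52 in the granule fraction (SE 0.26, adjusted p = 0.236) were not called, nor was the interaction of -0.58 (SE 0.37, adjusted p = 0.335). The granule difference was called under the same 4 alternatives as for Fos, with a lowest adjusted p of 0.00188.

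Jun (ENSMUSG00000052684, chromosome 4, 95049034 to 95052222, minus strand) encodes the main partner of Fos proteins and the substrate of the Jun N-terminal kinases. It measured 170 and 161 CPM in control total and 249 and 181 CPM in knockout total libraries. In the granule libraries it measured 509 and 507 CPM in control and 536.1 and 536.8 CPM in knockout cells. The granule groups did not overlap with the total groups, and the 4 granule libraries spanned a narrow range. Jun was 3.07-fold higher in the control granule fraction (1.62, SE 0.26, adjusted p = 0.0131) and 2.50-fold higher in the knockout one (1.32, SE 0.26, adjusted p = 0.0138). Between genotypes it differed by 0.38 in total RNA (SE 0.25, adjusted p = 0.362) and by 0.08 in the granule fraction (SE 0.25, adjusted p = 0.865). With the GC trend of each library removed, the granule difference in knockout cells was 0.93 and no longer called (adjusted p = 0.0599). Exons of the antisense gene Junos, which had at most 82 counts in any library, cover 7.28% of its exonic bases.

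Junb (ENSMUSG00000052837, chromosome 8, 84974484 to 84978718, minus strand) encodes a Jun protein that can oppose Jun in proliferation. Control total libraries held 240 and 202 CPM, control granule libraries 944 and 918 CPM and knockout granule libraries 1001 and 686 CPM. In knockout total RNA the replicates were at 82.5 and 338 CPM, on either side of the control values. Both granule groups lay above all total libraries. The granule fraction was 4.21-fold higher in control cells, which did not pass the threshold (2.07, SE 0.58, adjusted p = 0.0595), and 4.01-fold higher in knockout cells, which did (2.0, SE 0.58, adjusted p = 0.0495). With only the control libraries fitted, the control difference was 2.07 (SE 0.18, adjusted p = 7.52e-05). With only the knockout libraries fitted, 0 genes were called. The interaction was -0.07 (SE 0.79, adjusted p = 0.967), so a difference between the genotypes was not shown. The knockout call was kept in 8 of 20 refits and was lost, among others, with median-of-ratios scaling (adjusted p = 0.0519), with the replicate block (adjusted p = 0.0802) and without any 1 of the 6 libraries other than knockout total (adjusted p up to 0.225). The control difference was called without either knockout total library (adjusted p = 4.93e-06 without replicate 1), and the knockout difference was 1.31 without knockout total replicate 1 and 3.22 without replicate 2. The knockout change in total RNA turned from -1.32 without replicate 2 to 0.61 without replicate 1. Exons of Prdx2, on the opposite strand, cover 7.52% of the exonic bases of Junb.

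These 4 members had the largest granule to total differences in both genotypes, so the 250 bases before their transcription starts are shown, as given by RefSeq on GRCm38.p6 (chr12:85473640-85473889 plus strand, chr7:19310052-19310295 minus, chr4:95052223-95052472 minus and chr8:84978749-84978998 minus). For Fosb the last 6 bases are left out because GENCODE places the start there. Capitals mark matches on the coding strand to TGACG, the core of the cyclic AMP response element, to TGACNTCA, which allows any base in its middle, and to TATAAA, a core promoter element.
Fos: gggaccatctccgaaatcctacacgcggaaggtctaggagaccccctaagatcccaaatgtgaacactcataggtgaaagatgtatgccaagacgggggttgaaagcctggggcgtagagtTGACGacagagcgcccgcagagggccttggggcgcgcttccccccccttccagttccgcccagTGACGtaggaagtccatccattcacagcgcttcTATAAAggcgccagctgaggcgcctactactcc
Fosb: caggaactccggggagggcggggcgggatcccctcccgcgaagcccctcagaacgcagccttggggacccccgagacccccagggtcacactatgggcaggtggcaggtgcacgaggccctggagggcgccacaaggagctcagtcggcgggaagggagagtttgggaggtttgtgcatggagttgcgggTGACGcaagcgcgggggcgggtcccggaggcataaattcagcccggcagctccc
Jun: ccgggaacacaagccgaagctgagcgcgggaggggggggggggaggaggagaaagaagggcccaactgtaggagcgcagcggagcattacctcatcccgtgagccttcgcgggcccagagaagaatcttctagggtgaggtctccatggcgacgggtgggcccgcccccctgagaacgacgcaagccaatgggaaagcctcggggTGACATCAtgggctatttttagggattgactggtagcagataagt
Junb: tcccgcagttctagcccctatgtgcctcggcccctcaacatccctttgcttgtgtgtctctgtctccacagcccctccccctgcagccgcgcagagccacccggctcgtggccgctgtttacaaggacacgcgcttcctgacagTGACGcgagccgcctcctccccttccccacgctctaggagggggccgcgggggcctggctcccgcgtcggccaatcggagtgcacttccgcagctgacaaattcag
Both strands were searched for TGACG, TGACNTCA, the AP-1 site TGANTCA, the core promoter element TATAAA and the serum response element's CArG box, and TGACG can lie within TGACNTCA. In Fos, TGACG begins 129 and 66 bases before the RefSeq start and TATAAA 33 bases before it. TGACG begins 60 bases before the start in Fosb and 106 bases before it in Junb, and in Jun the match TGACATCA begins 45 bases before it. No match to TGANTCA or to a CArG box was found in these 4 windows. Bases further upstream were not searched, so elements there would have been missed. Over 32851 windows of 250 bases, 17.8% held TGACG, 7.5% TGACNTCA, 6.7% TGANTCA, 12.4% TATAAA and 1.5% a CArG box. The motifs were chosen after the sequences were seen, and a match is a description of the letters, not a site in use.

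Jund (ENSMUSG00000071076, chromosome 8, 70698949 to 70700616, plus strand) encodes the Jun protein that predominates in quiescent fibroblasts. Total RNA gave 388 and 323 CPM in control and 303 and 322 CPM in knockout cells. Granule RNA gave 312 and 320 CPM in control and 544 and 489 CPM in knockout cells. Only the knockout granule libraries stood apart, above the other 6. No comparison of Jund was called: the granule difference was -0.17 (SE 0.24, adjusted p = 0.664) in control and 0.73 (SE 0.24, adjusted p = 0.0697) in knockout cells, and knockout minus control was -0.19 for total RNA (adjusted p = 0.628) and 0.71 for granule RNA (SE 0.24, adjusted p = 0.1). The interaction was 0.90 (SE 0.34, adjusted p = 0.154) and turned to -0.92 (adjusted p = 0.361) with the GC trend removed. Jund had the highest GC content of the family (67.15%). Its knockout total replicates did not follow the trend, with a log2 ratio of 0.09 against a median of 2.17 for 15 genes of like GC content, itself included. Whether removing the trend overcorrected Jund was not tested. The predicted gene Gm11175 covers 52.58% of its exonic bases on the opposite strand and had 0 counts in all 8 libraries.

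Fosl1 (ENSMUSG00000024912, chromosome 19, 5447547 to 5455946, plus strand) encodes a Fos protein without the transactivation domain of Fos, itself described as an AP-1 target. It stood at 174 and 147 CPM in control total and 385 and 369 CPM in control granule libraries. In knockout cells the order was the other way, with 363 and 270 CPM in total and 279 and 259 CPM in granule libraries. The control groups were well separated, whereas the knockout groups overlapped. Fosl1 was 2.34-fold higher in the control granule fraction (1.23, SE 0.26, adjusted p = 0.0276), and its granule difference in knockout cells was -0.23 (SE 0.26, adjusted p = 0.558). The control call was kept in 13 of 20 refits and lost with the replicate block (adjusted p = 0.0571) and without any 1 of the 6 libraries other than knockout total (adjusted p up to 0.193). The test of that genotype difference gave -1.46 (SE 0.36, adjusted p = 0.0938), which did not pass the threshold. Knockout against control, total RNA differed by 0.98 (SE 0.26, adjusted p = 0.131) and granule RNA by -0.48 (SE 0.26, adjusted p = 0.258). The interaction kept its sign in all 19 refits and was called in 6 of them: without either knockout total library, with the GC trend removed with or without the replicate block, without a filter beyond 1 count, and by DESeq2 (adjusted p = 0.00528). Ccdc85b, on the opposite strand, covers 57.21% of the exonic bases of Fosl1. It stood at 36.3 to 88.4 CPM in control libraries, 7.05 and 55.4 CPM in knockout total and 199 and 242 CPM in knockout granule libraries. Whether the counting used the strand is not given in the sources used here, so how its reads were shared between both genes is uncertain.

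Fosl2 (ENSMUSG00000029135, chromosome 5, 32135801 to 32157842, plus strand) encodes the other late Fos protein and was the member whose level followed genotype. Control libraries held 266 and 250 CPM in total and 345 and 297 CPM in granule RNA. Knockout libraries held 69.5 and 114 CPM in total and 142 and 128 CPM in granule RNA. All 4 knockout libraries were below all 4 control libraries. In the granule fraction Fosl2 was 2.38-fold lower in knockout cells (-1.25, SE 0.29, adjusted p = 0.0385), and in total RNA 2.81-fold lower without passing the threshold (-1.49, SE 0.30, adjusted p = 0.0801). The granule to total differences of 0.32 (adjusted p = 0.499) in control and 0.56 (adjusted p = 0.219) in knockout cells were not called. The knockout differences were below 0 in all 20 refits, ranging from -1.42 to -1.07 in the granule fraction and from -1.78 to -1.18 in total RNA, and were called in 10 and 6 of them. Leaving out any library other than the knockout total ones ended the granule call (adjusted p up to 0.296), as did upper-quartile scaling, library size alone, the replicate block and the filter at a mean of 5 CPM. No exon of another gene overlaps Fosl2.

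**Figure D2:**
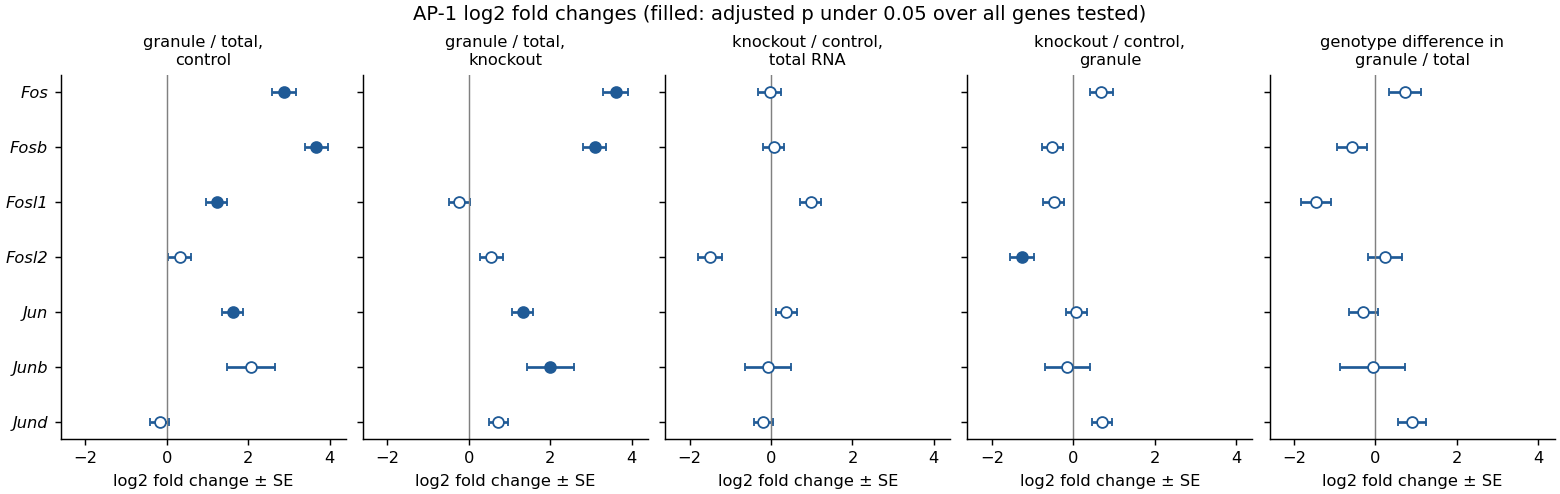
Log2 fold changes of the 7 members in the 5 comparisons, with standard errors; filled points passed an adjusted p under 0.05 over all genes tested. Fos and Fosb lie at 2.88 or above in both granule to total comparisons, and Fosl2 lies at -1.49 and -1.25 in the comparisons between genotypes.

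Levels of different members were compared per length, as CPM per kilobase of exon (RPKM). The 7 members together had 474 ± 52.7 RPKM in total and 1036 ± 18.0 RPKM in granule libraries of control cells (mean ± SD, n = 2). In knockout cells these sums were 519 ± 42.3 and 1072 ± 151 RPKM. The summed level per length was thus higher in the granule libraries of both genotypes and lay close together between genotypes within a fraction. Jund was the most abundant member of control total RNA, with 44.9% ± 0.819 of the family's RPKM. In control granule RNA Junb led with 39.1% ± 0.0856, and Jund was at 18.3% ± 0.665. Knockout granule RNA was also led by Junb (33.9% ± 4.28), followed by Jund (29.0% ± 1.90), which was close behind in replicate 2 (30.9% and 30.4%). In knockout total RNA Jund had 36.2% ± 1.40 and Fosl1 30.4% ± 8.72, and in replicate 1 Fosl1 and Jund were at 36.6% and 37.2%. Fos held 1.14% ± 0.0480 of control total and 3.84% ± 0.146 of control granule RNA of the family, and Fosb 0.406% ± 0.0299 and 2.38% ± 0.143, so that both were minor species where their fold changes were the largest. The 3 Jun genes held 76.2% ± 0.235 of the family in total and 72.7% ± 0.806 in granule RNA of control cells, and 66.4% ± 8.34 and 78.8% ± 0.136 in those of knockout cells. These shares are descriptions and were not tested.

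**Figure D3:**
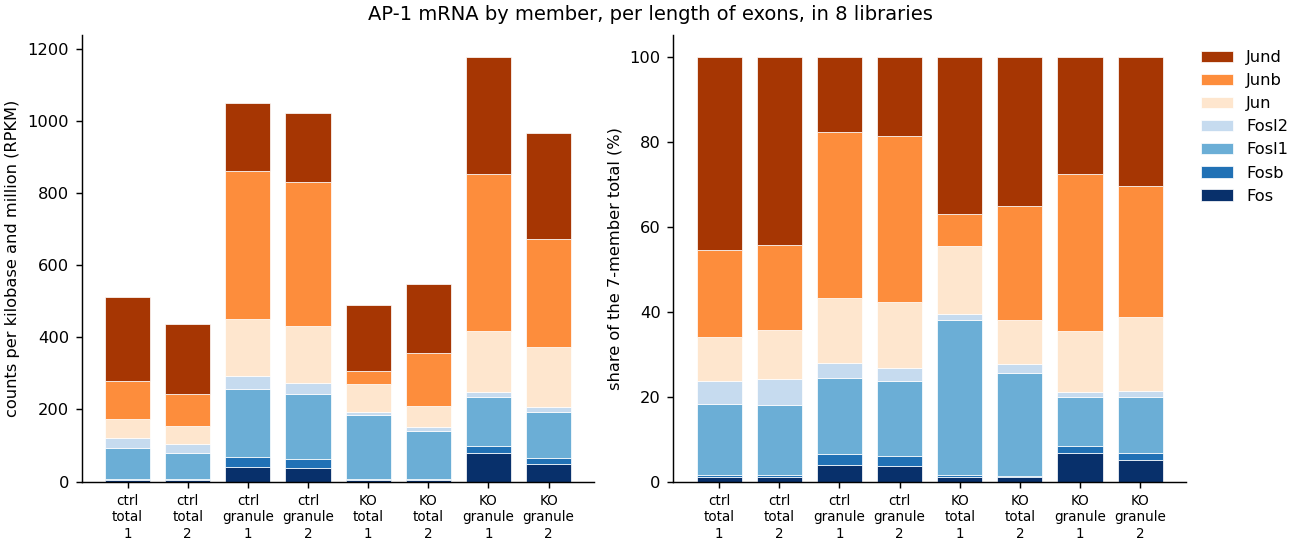
Stacked RPKM of the 7 members (left) and their share of the family total in percent (right) in each of the 8 libraries. The total lies at 437 to 549 RPKM in total RNA and 966 to 1179 RPKM in granule libraries, Junb (orange) leads in all 4 granule libraries and Jund (brown) in all 4 total libraries.

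Transcript GC content differs widely in the family, from 51.9% in Fos to 67.15% in Jund, and the log2 ratio of knockout total replicate 2 to replicate 1 rose with GC content over 10212 genes (Spearman rho 0.734 across genes, which are not independent replicates). The control total replicates followed GC content as closely in the opposite direction (-0.764), while the granule replicates did so little (0.155 in control, -0.0413 in knockout). Junb had a log2 ratio of 2.03, where the median of 124 genes within 1 percentage point of its GC content, itself included, was 1.65. Jund, with 0.09, was the lowest of 15 genes of like GC content, itself included (median 2.17). Fosl1 (-0.43 against a median of 1.15) and Jun (-0.46 against 0.80) also lay low among genes of like GC content, at percentiles 3.67 and 6.13. Members with high GC content therefore did not move together between these replicates. With the GC trend of each library removed, the granule difference in control cells was 3.10 for Fos, 4.03 for Fosb, 1.96 for Jun and 2.52 for Junb, all called. In knockout cells it was 3.56 for Fos, 2.72 for Fosb and 1.47 for Junb, which were called, and 0.93 for Jun, which was not. The change of Fosl2 in knockout granule RNA was -1.35 (adjusted p = 0.00334). The change of Jund in knockout total RNA turned from -0.19 to 1.07 (adjusted p = 0.172).

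**Figure D4:**
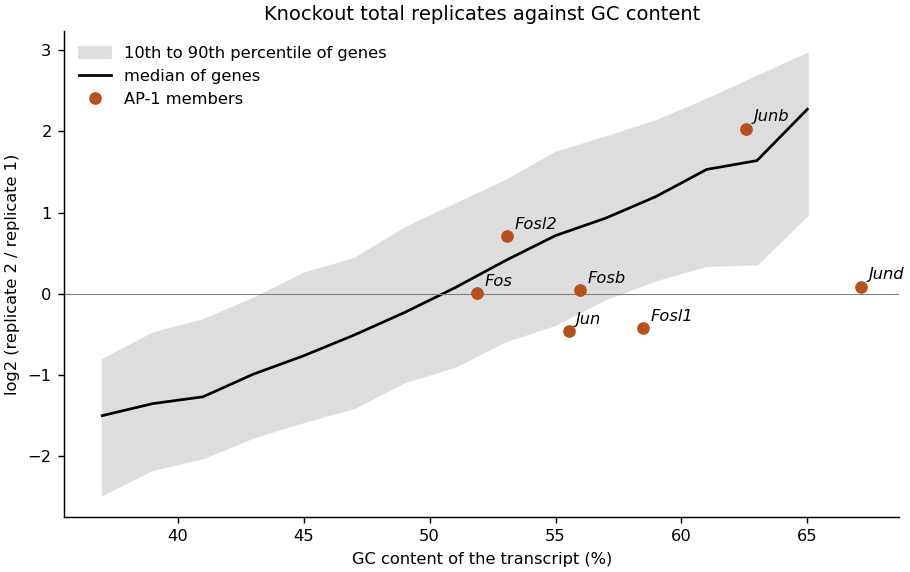
Log2 ratio of knockout total replicate 2 to replicate 1 against transcript GC content: the line is the median and the grey band the 10th to 90th percentile of genes in bins of GC content, and points are the 7 members. Junb lies near the line at 2.03, Fosl1 and Jun lie below the band, and Jund lies at 0.09, to the right of the last bin.

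Short-lived mRNAs of this family carry AU-rich elements, repeats of ATTTA in the 3′ untranslated region that recruit decay factors. Fos had 4 copies in 815 bases (4.91 per kilobase, percentile 92.0 of 20532 untranslated regions), Junb 2 (4.12 per kilobase) and Jun 4 (3.24 per kilobase). Jund had 1 copy (1.88 per kilobase), Fosl2 8 copies in 4653 bases (1.72), Fosl1 1 copy (1.57) and Fosb 1 copy in 2145 bases (0.47), against a median of 1.27 over all genes. The nonamer TTATTTATT was found in Fos and Fosl2 and in 7.7% of all these regions. The 30 bases with the densest ATTTA copies in Fos and Jun are shown, from the GENCODE M21 transcripts on GRCm38 (chr12:85477100-85477129 plus strand and chr4:95049207-95049236 minus strand), with ATTTA in capitals.
Fos: ttgtgttttcaATTTATTTAttaagatgga
Jun: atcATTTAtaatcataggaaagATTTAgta
In Fos 2 copies overlap by 1 base, and in Jun they lie apart. Fosl2, which had no called granule to total difference, also had 30 bases with 2 copies, not shown. The element's density did not order the members by granule difference: Fosb had the largest difference in control cells and the lowest density. The pentamer GGACT, a common context of N6-methyladenosine, occurred at 2.40 per kilobase of transcript in Jund, 2.20 in Jun, 1.90 in Fos, 1.66 in Junb, 1.32 in Fosb, 1.22 in Fosl2 and 0 in Fosl1, against a median of 1.02. No map of the modification was used here. The longest protein-coding transcripts of Jun, Junb and Jund have 1 exon, and those of the Fos genes have 4 exons.

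Other basic leucine zipper proteins that pair with Fos or Jun were read from a list of 16, all of them tested. For these lists, the share of all genes called in either direction was 10.1% between control fractions, 17.6% between knockout fractions and 9.45% between the genotypes' granule fractions, with all-gene medians of -0.06, 0.04 and 0.08. None was higher and 3 were lower in the control granule fraction (18.75% of the list, median -0.81), and in knockout cells 1 was higher and 3 were lower (25%, median -0.46). Ddit3, which forms inactive dimers and is induced by the integrated stress response, fell from 568 and 525 CPM in control total to 92.5 and 89.2 CPM in control granule libraries (log2 difference -2.59, adjusted p = 0.00475). Jdp2, a Jun-binding repressor, was lower in the granule fraction of both genotypes (-1.31, adjusted p = 0.032 and -1.62, adjusted p = 0.011). Atf3, a stress-induced repressor, was lower in control granule RNA (-1.24, adjusted p = 0.0231). Between genotypes none was called in total RNA, and 3 were higher and 1 lower in granule RNA. Maf, a large Maf protein, stood at 56.1 and 53.6 CPM in control granule and 536 and 446 CPM in knockout granule libraries (3.16, adjusted p = 0.00808), whereas Atf7, a partner of Jun, was lower (-1.08, adjusted p = 0.041).

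Of 27 upstream kinases and factors, 2 were higher and 0 lower in the control granule fraction (7.41% of the list, median 0.55), and 3 were higher and 2 lower in the knockout one (18.5%, median 0.03), shares near those of all genes. Elk3, a ternary complex factor that acts with serum response factor on the Fos promoter, was higher in granule RNA of control (1.68, adjusted p = 0.0101) and knockout cells (1.80, adjusted p = 0.00422), at 269.6 CPM or more in every granule library and 97.8 CPM or less in every total library. Map2k3, a kinase of the p38 pathway, was higher in control granule RNA (1.07, adjusted p = 0.0438). Between genotypes 0 were called in total RNA, and 2 were higher and 3 lower in granule RNA (median -0.41). The lower ones included Map2k1, a kinase of the ERK cascade (-1.04, adjusted p = 0.0406), and Mef2d, a factor that acts on the Jun promoter (-1.18, adjusted p = 0.0299). Map3k5, the oxidant-sensing kinase ASK1, was higher at 12.9 and 9.60 CPM in knockout against 3.60 and 3.07 CPM in control granule libraries (1.76, adjusted p = 0.0137).

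Immediate-early genes that are commonly induced with Fos and Jun had the highest median of the 6 lists in the granule to total comparison of each genotype. Of 21 tested, 9 were higher and 1 (Atf3) was lower in the control granule fraction (median 1.32), and 12 were higher and 0 lower in the knockout one (median 1.31). Arc, a cytoskeleton-associated immediate-early gene, stood at 9.99 and 7.82 CPM in control total and 216 and 197 CPM in control granule libraries (4.54, adjusted p = 0.00302), and its difference was 4.60 in knockout cells (adjusted p = 0.00213). The nuclear receptor Nr4a1 (3.70 in control, 3.29 in knockout) and the zinc finger factor Egr2 (3.21 and 4.11) were also called in both genotypes, as was Dusp1, a phosphatase that inactivates the upstream kinases (2.42 and 2.27). None was called between genotypes in total RNA. In granule RNA Klf4 (2.12, adjusted p = 0.00584) and Egr2 (1.84, adjusted p = 0.0182) were higher in knockout cells, and no interaction was called.

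Genes described as AP-1 targets, 26 with Fosl1 among them, included 10 higher and 1 lower in control granule RNA, yet their median was 0.13. In knockout cells 5 were higher and 3 lower (median -0.13). Hbegf, a growth factor of the epidermal growth factor family, rose from 84.2 and 81.6 CPM to 531 and 516 CPM between control fractions (2.66, adjusted p = 0.00475) and by 3.46 in knockout cells (adjusted p = 0.00213). Ereg, of the same family, was higher in control granule RNA (3.14, adjusted p = 0.0296), and the cell cycle inhibitor Gadd45a was lower (-2.66, adjusted p = 0.0101). The 3 targets called between genotypes in total RNA were matrix metalloproteinases, and none of these calls was kept with the replicate block, with only the total libraries fitted or without any 1 of the 6 libraries other than knockout total, where no gene at all was called. Mmp13, a collagenase, stood at 9.46 and 14.2 CPM in control and 569 and 179 CPM in knockout total libraries (4.98, adjusted p = 0.027). Mmp3, stromelysin, was at 28.7 and 33.9 CPM in control and 186 and 376 CPM in knockout total libraries (3.17, adjusted p = 0.0397), and Mmp10 was higher by 2.34 (adjusted p = 0.0345). Mmp13, Mmp3 and Mmp10 were called there in 12, 9 and 10 of 20 refits. All 3 were higher in knockout granule RNA too (2.80 to 5.30), where 6 targets were higher and 2 lower. Ccnd1, cyclin D1, was the lower one of the named targets there, at 240 and 239 CPM in control and 44.1 and 51.7 CPM in knockout granule libraries (-2.32, adjusted p = 0.00541). It was also the target whose granule to total ratio differed between genotypes (-2.44, adjusted p = 0.0437), a call kept in 9 of 19 refits (adjusted p up to 0.317) and lost with the replicate block and without any 1 of the libraries other than knockout total.

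Of 10 proteins that bind AU-rich elements or neighbouring motifs, 2 were higher in control granule RNA (Zfp36, 2.12, adjusted p = 0.00864, and Zfp36l2, 1.81, adjusted p = 0.0111), both of them decay factors. In knockout cells Zfp36 was higher (1.73, adjusted p = 0.00745). Zfp36l2 was at 560 and 483 CPM in control and 228 and 201 CPM in knockout granule libraries, and at 133 and 165 CPM in control and 430 and 337 CPM in knockout total libraries. Its interaction was -2.65 (adjusted p = 0.0405), which was called in 12 of 19 refits (adjusted p up to 0.317) and lost under the same changes as that of Ccnd1. The list's median was 0.79 in control and -0.61 in knockout cells for granule against total RNA, and 1.19 between genotypes in total RNA, where 0 of 10 were called.

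Among 10 factors of AP-1 protein turnover, 2 were higher and 1 was lower in control granule RNA, and 3 were higher and 1 lower in knockout granule RNA (30.0% and 40.0% of the list, where 10.1% and 17.6% of all genes were called). Trib1, a pseudokinase that guides the ubiquitin ligase COP1 to its substrates, was higher in both genotypes (2.52, adjusted p = 0.00475 and 1.71, adjusted p = 0.00565), as was Fbxw7, a ligase subunit that binds phosphorylated Jun (1.73, adjusted p = 0.018 and 1.66, adjusted p = 0.0118). Trib3 fell from 529 and 397 CPM to 22.3 and 25.5 CPM between control fractions (-4.28, adjusted p = 0.0105). Trib2 was the one called between genotypes, at 7.38 and 8.02 CPM in control and 30.9 and 32.0 CPM in knockout total libraries (2.03, adjusted p = 0.027) and higher by 2.51 in granule RNA (adjusted p = 0.004). The difference in total RNA was called in 11 of 20 refits (adjusted p up to 0.429), and not with the replicate block. The counts of all 6 lists depend on the fit: over the alternatives, single libraries left out included, the count of immediate-early genes higher in control granule RNA ranged from 0 to 16 and that of targets from 0 to 12.

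Across the 8 libraries, log2 CPM of Fos and Fosb had a Pearson correlation of 0.97, Fos and Jun of 0.96, Fosb and Jun of 0.96 and Fosb and Junb of 0.90. Fosl2 correlated with no other member above 0.48 (Junb), and its correlation with Jund was -0.16. These values describe 8 libraries in 4 groups, and libraries of a group share genotype, fraction and treatment. Of 10062 protein-coding candidates averaging 5 CPM or more, those most like Fos were Hbegf (0.991), Katna1 (0.989) and Elk3 (0.988), those most like Fosb Cdh18 (0.998), Nr4a1 (0.997) and Ccn2 (0.997), and those most like Junb Csrnp1 (0.998), Btg2 (0.997) and Metrnl (0.985). Jun was most like Hes1 (0.996), Ddx3y (0.996) and Cenpe (0.993). Fosl2 was most like Plin4, Itga3 and Gmpr2 (0.99 each), Fosl1 like Hspa8 (0.98), Zwint and Ptpn21 (0.97 each), and Jund like Osr2 (0.99), Col6a2 and Col6a1 (0.98 each). Among the members themselves Fos, Fosb and Jun were the most alike in pattern.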

How the data were processed

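The authors deposited a table of raw read counts by Ensembl identifier for all 8 libraries. STAR, DESeq2 and the builds GRCm38 and mm10 are named in the submitters' processing notes, without role or order; the counting program, strand setting and annotation release are not given in the sources used here. Of 39017 identifiers, 37693 matched GENCODE M21 (GRCm38), the source of symbols, coordinates, exon lengths and GC content. The test was edgeR's (4.0.16, in R 4.3.3) robust quasi-likelihood F-test, after trimmed-mean scaling and edgeR's expression filter, in 1 model of 4 group means over 8 libraries, with 4 residual degrees of freedom; 5 contrasts were adjusted by Benjamini-Hochberg over 18952 genes. Log2 CPM used a prior count of 2. The members, gene lists and markers were chosen with earlier results of these data known. Named list genes are up to 4 called genes per comparison with the largest log2 fold change and a mean of at least 5 CPM; likeness names 3 genes per member. The labels give no pairing, and the replicate number was a block only as an alternative. Deviations of same-numbered replicates had correlations of -0.60 to 0.19, which cannot decide whether samples were paired. Alternatives covered scaling, filter, GC trend (lowess, span 0.3), replicate block, groups fitted, limma 3.58.1 voom weights, DESeq2 1.42.0, length and each library left out; the code was tested on simulated data. RefSeq held promoter windows for 6 of 7 members (not Fosl1); Fosl2's and Jund's are not shown because GENCODE places their starts elsewhere. Counting error allows up to 0.0446 CPM for a count of 0 in the smallest library (3 counts). Some listed genes that met the naming rule are not reported here.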

Additional observations from a re-analysis of the deposited data

How the results depend on the processing

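Each of the 35 member differences was recomputed under up to 20 alternatives (693 values): 548 kept their direction and side of the threshold, 51 fell short of it, 55 passed it and 39 changed sign. None of 1297 values of the named listed genes and Mettl3 changed sign, but 346 lost a call and 5 gained one. The listed genes were named for large called differences in these data, so their kept signs were largely set by that choice. These values were recomputed after the data were seen, as was the crossed block. Replicates limit the tests more than depth does: a library left out leaves its group with 1, which is assumed to vary like the others. Members called without each library in turn ranged from 0 to 5 (control granule against total), 2 to 7 (knockout granule against total), 0 to 4 (total RNA, genotypes), 0 to 5 (granule, genotypes) and 0 to 4 (interaction). In total RNA between genotypes, 2 members were called with no filter beyond 1 count, with the GC trend removed and by DESeq2. In granule RNA between genotypes, 0 were called with upper-quartile scaling, library size alone or the replicate block, 5 with only the groups compared or voom weights and 2 by DESeq2. In knockout granule against total, 0 were called with only the groups compared. In the interaction, 1 was called with no filter, with the GC trend removed and by DESeq2. The cause was not tested.

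Correlations of same-numbered replicates cannot decide whether samples were paired, because the total RNA replicates followed GC content in opposite directions between genotypes. The labels give no pairing for the replicate numbers. With them as a block, 3, 3, 0, 0 and 0 members were called in the 5 comparisons in that order, against 4, 4, 0, 1 and 0, and the Junb interaction was 0.044; with crossed numbers as a block 5, 4, 0, 1 and 0 were called and it was 0.051. With the block and the GC trend removed together, 1 member was called in total RNA between genotypes and 1 in the interaction.

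With the GC trend removed, signs changed for Jund (0.34 in control and -0.58 in knockout granule against total, 1.07 in total RNA between genotypes, -0.92 in the interaction), Fos (0.15) and Junb (0.47) in total RNA, Jun in granule RNA (-0.063) and the Fosl2 interaction (-0.12). With the replicate block as well these were 0.33, -0.47, 0.94, -0.80, 0.15, 0.47, -0.062 and -0.12. Fosb in total RNA was -0.039 with upper-quartile scaling and -0.031 with library size alone. Fos in total RNA was 0.039 and Jun in granule RNA -0.0063 with no filter. Junb in granule RNA was 0.032 with a filter at a mean of 5 CPM. The Junb interaction was 0.16 with upper-quartile scaling, 0.059 with library size alone, 0.12 with that filter and 0.21 with voom weights. With single libraries left out, the sign changed in total RNA for Fos (-0.040 to 0.068), Fosb (-0.047 to 0.26) and Junb (-1.32 to 0.61), in granule RNA for Junb (-0.49 to 0.097) and in the interaction for Fosl2 (-0.088 to 0.47) and Junb (-0.77 to 1.11).

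Upper-quartile scaling moved the median of all genes to -0.29 in control granule against total (761 genes called higher and 1258 lower, against 1116 and 790), to 0.23 in granule RNA between genotypes (1326 and 487, against 1098 and 693) and to 0.33 in the interaction. Library size alone gave 832 higher and 845 lower in control granule against total. With the longest transcript as length, the Jun family's share was 74.2% in control total and 78.1% in knockout granule RNA. On that length Fosl1 rather than Jund led in knockout total replicate 1, with 37.5% against 34.9%.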
